A study of Mus musculus with 6 samples.

Results

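Chromatin-modifying enzymes write, erase or read the chemical marks on histones and DNA. The 89 genes described here are the mouse genes whose names begin with Kdm1 to Kdm5, Kdm7, Kdm8, Kmt, Setd, Ehmt, Suv39h, Hdac, Sirt, Kat, Prmt or Dnmt, with Tet1 to Tet3, the numbered Cbx genes and the numbered Pcgf genes, leaving out the X- and Y-linked Kdm5c and Kdm5d and the H3K27 demethylases of the Kdm6 family. They are 89 of the 16300 genes in the deposited table and were sorted into 13 classes by family, activity or role. The study asked how androgens change H3K27 trimethylation in the ovary through its methyltransferase Ezh2 and its demethylase Jmjd3, and these genes hold much of the remaining methylating, demethylating, acetylating and deacetylating machinery. The data were RNA-seq libraries of granulosa cells (GCs), which line the ovarian follicle and support the oocyte within it.

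Both groups came from wild type C57BL/6J mice aged 8 to 9 weeks. The control group was 3 libraries of GCs kept in media. The DHT group was 3 libraries of GCs treated with 25 nM dihydrotestosterone (DHT), an androgen that aromatase does not turn into estrogen, for 24 h. Per the study's methods, each library was a pooled sample of the cells of 5 mice, with 3 pooled samples in each group, and all cells were grown in serum and then starved of it before treatment, so both groups are cultured primary cells rather than cells of an intact follicle. The labels name granulosa cells but also speak of RNA extracted from whole ovary, and a free-text field mentions treatment with DHT alone, so the groups rest on a separate treatment field that gives control or DHT per sample.

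Histone lysine methyltransferases and demethylases set methylation at residues such as H3K4, which marks active promoters and enhancers, and H3K9, which marks silent chromatin. Acetyltransferases open chromatin, and histone deacetylases (HDACs) and sirtuins reverse this. Some HDACs act inside corepressor complexes such as CoREST. DNA methyltransferases add methyl groups to cytosine and the TET dioxygenases oxidize them. HP1 proteins read H3K9 methylation, and the Polycomb chromobox and PCGF proteins belong to Polycomb repressive complex 1 (PRC1), which acts with the H3K27 methylating complex PRC2. Nuclear receptors such as the androgen receptor recruit many of these enzymes as coregulators. RNA-seq measures the transcripts of these genes and neither the proteins nor their activity.

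The totals behind the deposited values were 36111177 to 41928585 reads per library, taking as 1 read the step of which every value of a library was a whole multiple within 0.001. These totals serve only to describe depth and levels per length. Granulosa markers were abundant in every library, with the 11 of 12 listed markers that were found summing to 216710.0 to 232073 normalized counts in control and 237219 to 253818 in DHT. The largest part of this sum was *Cyp11a1*, with 97025, 85893 and 80557 in control and 108458, 128662 and 132928 in DHT. The 9 of 10 oocyte markers found summed to 373 to 925 in control and to 44.7 to 695 in DHT, and Zp3, Oosp1 and Dppa3 were at 0 in DHT replicate 2. The 9 of 11 theca and stroma markers found summed to 10241 to 13345 in control and 14512 to 15975 in DHT, without overlap. Much of this sum was *Acta2*, with 4293, 6425 and 5479 in control and 8217, 9086 and 9735 in DHT. *Acta2* was the only one of the 9 called (log2 fold change 0.76 ± 0.13, adjusted p = 0.0056 by limma). Of the 9 log2 fold changes, 4 were positive and 5 negative. Log2 fold changes are DHT minus control and are given ± SE throughout. Of the 11 granulosa markers, 5 had positive and 6 negative log2 fold changes. Among them *Hsd17b1* and *Cyp11a1* were called higher and *Inha* and *Foxl2* lower, and the immune marker *Csf1r* fell. The 4 of 8 endothelial markers found summed to 150.4 to 179 and 140.9 to 199, the 4 of 8 immune markers to 471 to 546 and 362 to 605, and the 8 surface epithelium markers to 4097 to 4724 and 3261 to 4301, in control and DHT respectively. Theca markers Cyp17a1 and Insl3 were not analysed here. The part of these cells in the differences below was not tested, and fewer cells of a type and less RNA per cell cannot be told apart in bulk libraries.

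Only 3 of the 89 genes passed the test between DHT-treated and control GCs. *Kdm1b* and *Hdac5* were higher in DHT and *Kdm3a* was lower, each by less than 1.3-fold. Genes were tested with limma on log2(normalized count + 1) over all 16292 genes with a mean of at least 10, and called at a Benjamini-Hochberg adjusted p of at most 0.05. The share called was 3.37% of these 89 genes, beside 11.2% of all genes tested (1823 of 16292). Among the 10088 tested genes whose mean count lay between 187 and 10000.1, the range of all but the 3 lowest chromatin genes, 14.1% were called. By direction, 2 of 89 (2.25%) were higher and 1 of 89 (1.12%) was lower, beside 6.52% and 4.66% of all genes. At the stricter rule, which adds an absolute log2 fold change above 1, 0 of the 89 were called by limma beside 1.31% of all genes. Before adjustment, 14 of the 89 (15.7%) had a p of 0.05 or less, beside 25.2% of all genes. The 11 of these that were not called were *Kdm1a*, *Kdm5a*, *Kmt2c*, *Ehmt2*, *Hdac4*, *Hdac9*, *Hdac10*, *Prmt3*, *Dnmt3a*, *Cbx6* and *Pcgf6*.

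**Figure D1:**
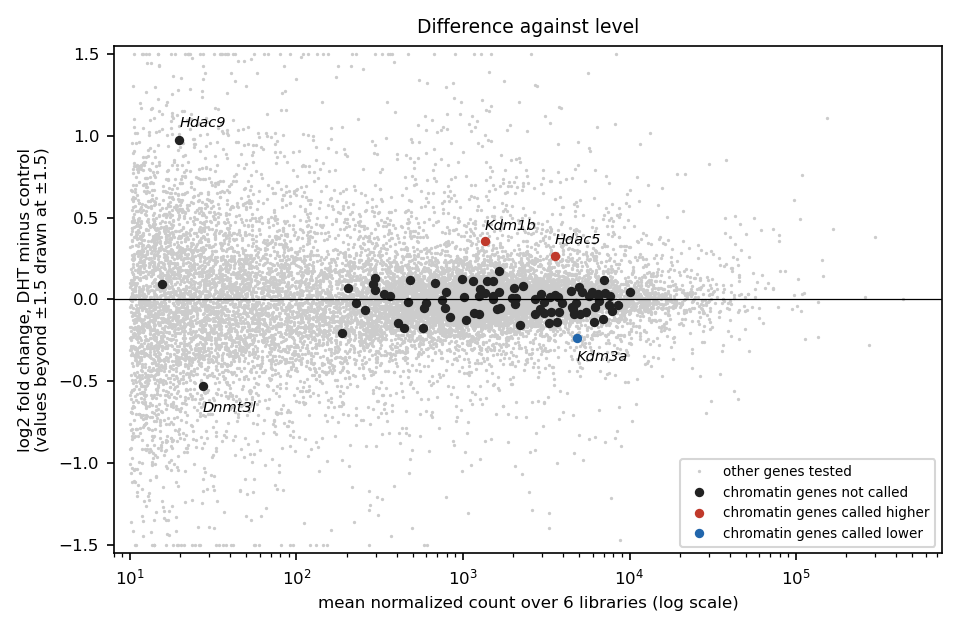
The log2 fold change of each gene (DHT minus control, vertical axis, drawn at ±1.5 where beyond it) is plotted against its mean normalized count over the 6 libraries (horizontal axis, log scale), with all genes tested in grey and the 89 chromatin genes as larger points. The chromatin genes with a mean above 50 lie between -0.24 and 0.36, and *Hdac9* at 0.97 and *Dnmt3l* at -0.53 stand apart at low counts.

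The differences of the other 86 genes were bounded closely. The median log2 fold change of the 89 genes was 0.0053, with 46 above 0 and 43 below, beside -0.0052 over all genes tested. Its standard error had a median of 0.052 for these genes and 0.078 for all genes. The whole 95% interval of limma, not adjusted for the number of genes, lay within a 1.2-fold change in either direction for 69 of the 89 genes and within a 1.5-fold change for 86. The 3 genes with wider intervals, *Hdac9*, *Kdm4d* and *Dnmt3l*, had means under 50 normalized counts, where these libraries could not show a modest difference. The control and DHT values did not overlap in 21 of the 89 genes (23.6%), beside 30.6% of all genes tested. Of these, 8 were higher in DHT (8.99% of the 89) and 13 lower (14.6%), beside 15.9% and 14.7% of all genes tested.

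**Figure D2:**
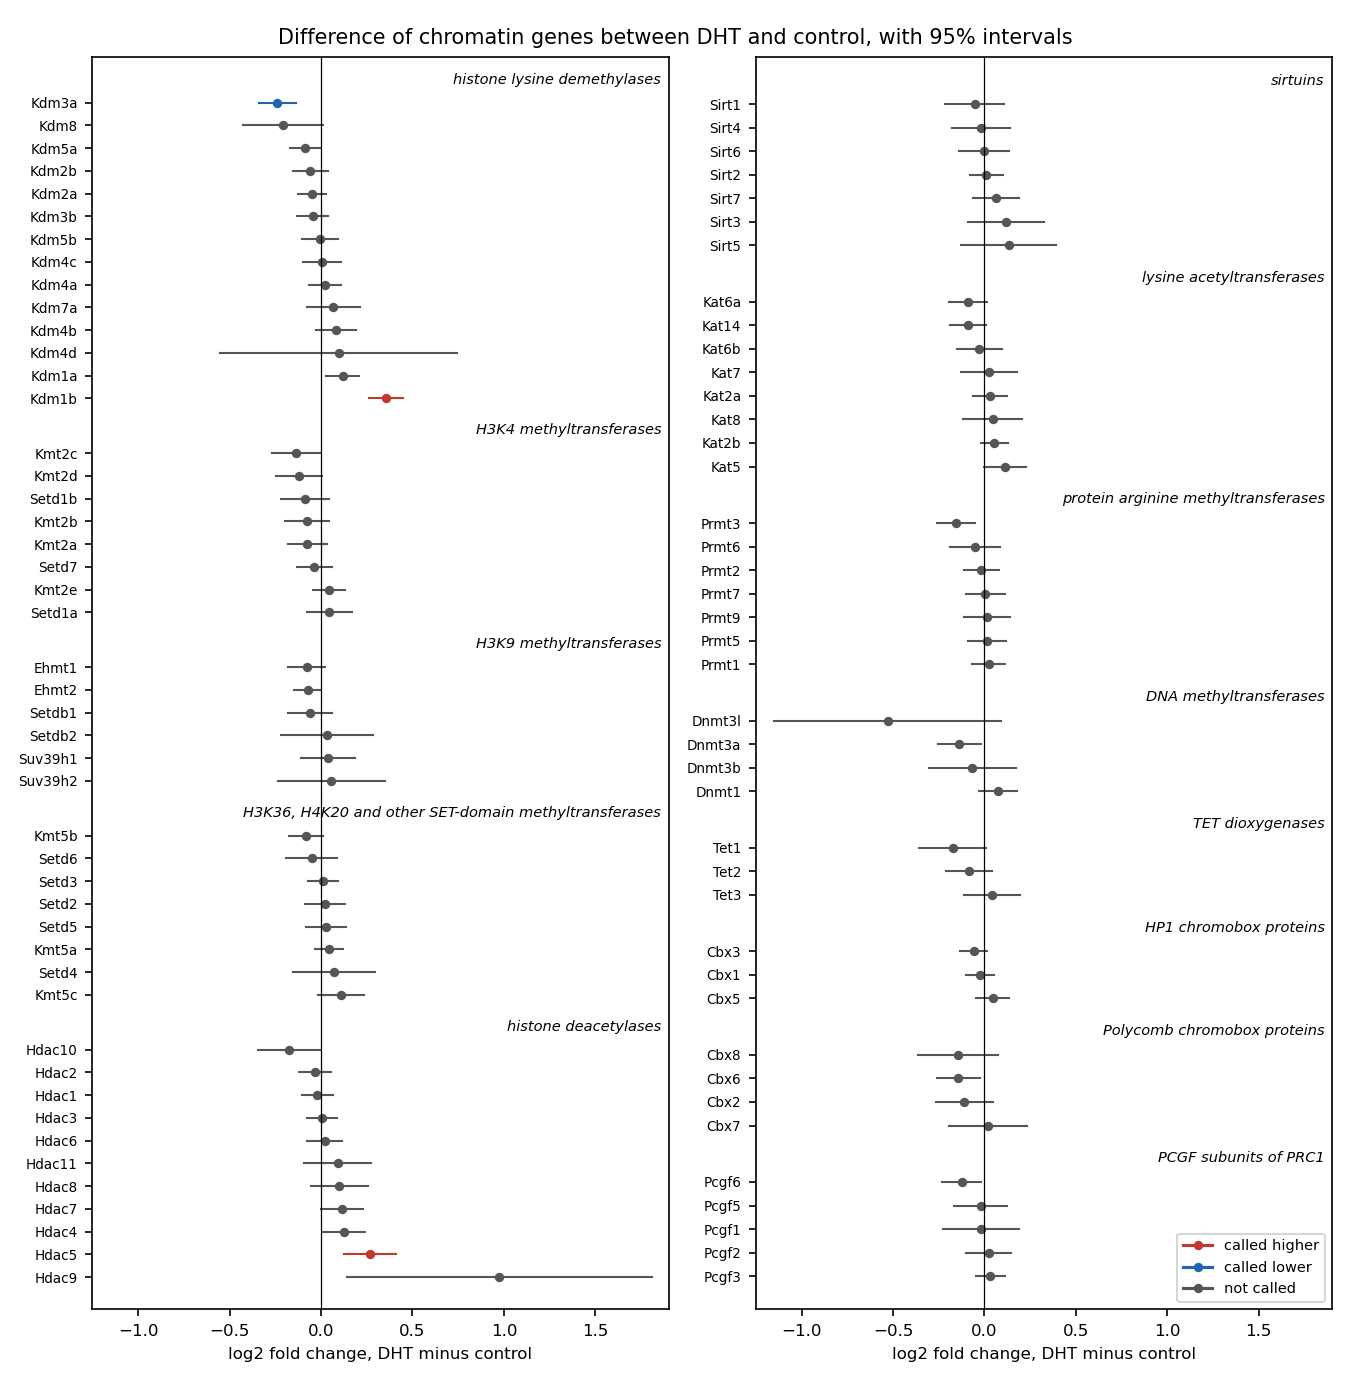
Each gene shown is drawn as its log2 fold change (DHT minus control, point) with the 95% interval of limma (line), ordered by value within its class. Red marks the 2 genes called higher, blue the single gene called lower and grey the rest, and 69 of the 89 intervals lie within a 1.2-fold change.

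The histone lysine demethylases held 2 of the 3 called genes. Of 14 measured, 1 rose, 1 fell and 12 did not pass the test, so that 14.3% were called beside 11.2% of all genes tested and 14.1% of those with a mean count between 187 and 10000.1, and the median log2 fold change of the class was -0.00043. *Kdm1b* (LSD2; ENSMUSG00000038080; chr13:47043499-47085279, plus strand of GRCm38) is a flavin-dependent demethylase of mono- and dimethylated H3K4, known for its part in setting maternal imprints in growing oocytes. Its normalized counts were 1177, 1204 and 1184 in the control libraries and 1500.1, 1511 and 1551 in the DHT libraries. All 3 DHT libraries lay above all 3 control libraries, and the gap between the groups was wider than the range within either. The means were 1189 ± 14 (SD, n = 3) without DHT and 1521 ± 26.7 (SD, n = 3) with it, a log2 fold change of 0.36 ± 0.042 with a 95% interval of 0.26 to 0.45 (adjusted p = 0.0010, limma). This is a 1.28-fold difference (1.2 to 1.37). It passed the test under all 16 alternative settings. The 9 oocyte markers summed to 44.7 in DHT replicate 2, where *Kdm1b* had 1511 counts, and to 663 and 695 in DHT replicates 1 and 3, and their part in the difference was not tested. Of its exons, 9.19% overlap *Dek* on the opposite strand, a gene with 0.12 for its own log2 fold change (adjusted p = 0.082 by limma), and the strand setting of the authors' counting is not given in the sources used here.

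*Kdm3a* (ENSMUSG00000053470; chr6:71588972-71632990, minus strand of GRCm38) was lower in DHT. It is a dioxygenase that removes mono- and dimethylation of H3K9 and is known as a coactivator of the androgen receptor and as a gene induced in low oxygen. Its normalized counts were 5143, 5026 and 5542 in the control libraries and 4537, 4371 and 4403 in the DHT libraries. Every DHT library was below every control library, with control replicate 3 the highest of the 6. The means were 5237 ± 271 (SD, n = 3) without DHT and 4437 ± 87.7 (SD, n = 3) with it, and the log2 fold change was -0.24 ± 0.044, with a 95% interval of -0.34 to -0.14 (adjusted p = 0.0092, limma). No other annotated gene overlaps its exons. The call held in 15 of 16 alternatives and was lost without the intensity trend (adjusted p = 0.071).

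The sequences just before the starts of the 3 called genes are shown because the study concerns the androgen receptor and hypoxia-inducible factor, whose short recognition sequences can be looked for in them. Each is the 250 bases before the gene's farthest upstream start in RefSeq (GRCm38.p6), read 5′ to 3′ on the gene's own strand. *Kdm3a* has 3 annotated starts. Its window runs into the gene span given above, which comes from the GENCODE annotation and ends at 71632990. Capitals mark, on either strand, the hypoxia response cores ACGTG and GCGTG, the androgen receptor half-site TGTTCT, the full androgen receptor palindrome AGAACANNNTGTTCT, which contains the half-site on both strands, and the GC box GGGCGG.
Kdm1b, chr13:47043249-47043498, plus strand: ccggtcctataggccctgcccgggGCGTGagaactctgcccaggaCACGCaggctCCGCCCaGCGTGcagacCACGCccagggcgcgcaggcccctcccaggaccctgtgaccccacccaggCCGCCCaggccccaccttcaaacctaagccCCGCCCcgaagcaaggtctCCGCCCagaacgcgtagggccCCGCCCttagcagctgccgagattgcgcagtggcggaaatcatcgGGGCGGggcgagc
Kdm3a, chr6:71632918-71633167, minus strand: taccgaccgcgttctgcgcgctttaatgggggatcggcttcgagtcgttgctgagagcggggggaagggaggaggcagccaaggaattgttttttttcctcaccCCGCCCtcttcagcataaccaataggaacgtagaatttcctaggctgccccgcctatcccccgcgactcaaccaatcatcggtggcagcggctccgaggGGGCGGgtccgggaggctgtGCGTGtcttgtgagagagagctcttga
Hdac5, chr11:102230173-102230422, minus strand: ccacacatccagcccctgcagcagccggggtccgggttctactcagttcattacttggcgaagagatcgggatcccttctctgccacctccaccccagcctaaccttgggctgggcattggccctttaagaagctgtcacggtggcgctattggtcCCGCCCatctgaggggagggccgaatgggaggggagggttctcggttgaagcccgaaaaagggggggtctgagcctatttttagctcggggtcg
The *Kdm1b* window held 4 copies of GCGTG and 6 GC boxes. The *Kdm3a* window held 1 copy of GCGTG and 2 GC boxes, and *Hdac5* held 1 GC box and neither hypoxia core. In *Kdm3a* the GCGTG and 1 of the GC boxes lie in the part inside the GENCODE span. None of the 3 windows held ACGTG, the half-site or the palindrome. Over the 27025 genes with such a window, GCGTG was present in 28.3%, ACGTG in 16.5%, the half-site in 16.1%, the palindrome in 0.0037% and the GC box in 33.0%. Among the 75 of the 89 chromatin genes with a window, GCGTG was present in 42.7%, ACGTG in 25.3%, the half-site in 13.3% and the GC box in 65.3%. The windows of the chromatin genes were also richer in G and C, with a median of 60.4% beside 52% over all genes. A match of letters is a description of the sequence and not a bound site.

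**Figure D3:**
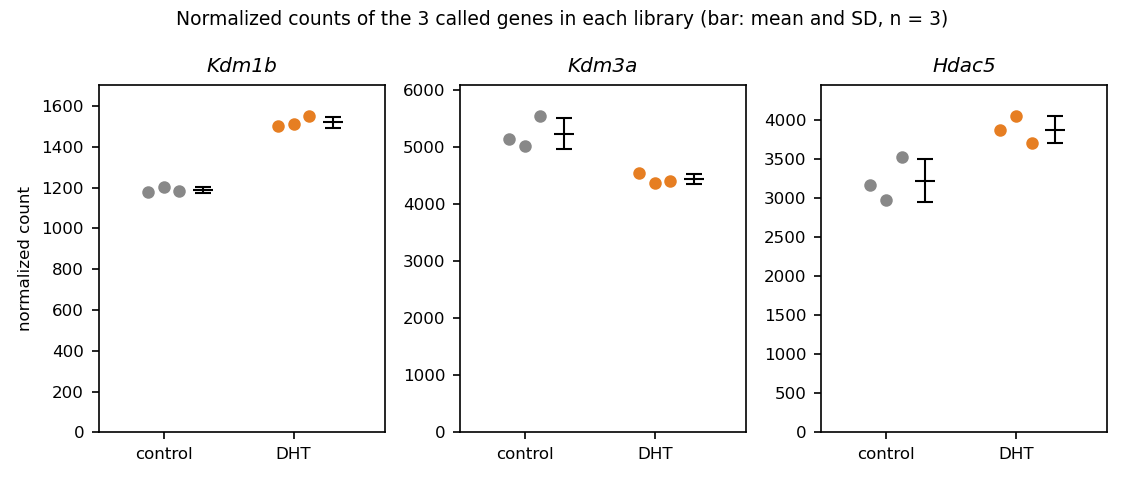
Normalized counts (vertical axis, from 0) of *Kdm1b*, *Kdm3a* and *Hdac5* are shown for each control (grey) and DHT (orange) library, with the mean and SD of 3 libraries beside the points. The groups do not overlap in any of the 3 genes, and the narrowest gap is in *Hdac5*, between control at 3522 and DHT at 3712.

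None of the other 12 demethylases passed the test. *Kdm1a* (LSD1), the H3K4 demethylase of the CoREST complex, had the highest level of the class at 34.8 RPKM, the reads scaled to the length of the exons and to the library total, so that levels of different genes can be compared. Its counts were 6528, 6648 and 6970.2 in the control libraries and 7537, 7097 and 7236 in the DHT libraries. The groups did not overlap and DHT was the higher, but the log2 fold change of 0.12 ± 0.040 did not pass the test (adjusted p = 0.10, limma). *Kdm1b*, its paralog, stood at 6.34 RPKM. *Kdm4a* and *Kdm4b* remove trimethylation of H3K9 and H3K36. *Kdm4a* had 5659.6, 5668 and 5782 in the control libraries and 6001, 5811 and 5569.8 in the DHT libraries. *Kdm4b* had 2298, 2097 and 2309 in the control libraries and 2412, 2288 and 2394 in the DHT libraries. The groups overlapped in both, with log2 fold changes of 0.022 ± 0.038 and 0.082 ± 0.049, and intervals of -0.064 to 0.11 and -0.028 to 0.19. *Kdm5b*, a demethylase of trimethylated H3K4, had 6468, 6439 and 6758 in the control libraries and 6885, 6289 and 6400.1 in the DHT libraries, with overlapping groups and an interval of -0.11 to 0.092 on the log2 scale. The sign of the *Kdm4a* difference turned with upper-quartile scaling, with the GC and length correction and without DHT replicate 1, and that of *Kdm5b* turned in 3 of the 6 fits that leave out a library. *Kdm2a*, *Kdm2b*, *Kdm5a* and *Kdm8* were lower in every DHT library than in every control library, with log2 fold changes of -0.049, -0.058, -0.088 and -0.21, and none passed the test (smallest adjusted p = 0.17). *Kdm3b*, *Kdm4c*, *Kdm4d* and *Kdm7a* had overlapping groups, and *Kdm4d* had a low level of 0.14 RPKM. In the order of levels, *Kdm4a* (25.6 RPKM) and *Kdm3a* (15.1) followed *Kdm1a*, each apart from its neighbours. From *Kdm4b* (12.1) down through *Kdm2a*, *Kdm5b*, *Kdm5a* and *Kdm4c* to *Kdm3b* (8.22), neighbours did not differ beyond the range of the 6 libraries.

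The 11 HDACs held the third called gene. *Hdac5* (ENSMUSG00000008855; chr11:102194432-102230166, minus strand of GRCm38) is a class IIa deacetylase, a group with little enzyme activity of its own that binds MEF2 transcription factors and joins a corepressor complex with Hdac3. Its normalized counts were 3172, 2981 and 3522 in the control libraries and 3868, 4052 and 3712 in the DHT libraries. All DHT libraries were above all control libraries, although control replicate 3 came close to DHT replicate 3. The means were 3225 ± 274 (SD, n = 3) without DHT and 3877 ± 169.9 (SD, n = 3) with it, a log2 fold change of 0.27 ± 0.062 with a 95% interval of 0.13 to 0.41 (adjusted p = 0.025, limma). This call was the least stable of the 3. It held in 8 of 16 alternatives and was lost when control replicate 1 or 2 or any of the 3 DHT replicates was left out (adjusted p from 0.052 to 0.11), with the replicate block (0.0865), with the block and the correction for GC content and length (0.098), and without the intensity trend (0.12). Without control replicate 3 the log2 fold change was 0.33 and the adjusted p 0.0031.

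The other class IIa genes also had positive differences without passing the test. *Hdac9* had the largest log2 fold change of all 89 genes, 0.97 ± 0.37, on counts of 6.93, 13.9 and 20.4 in the control libraries and 26.4, 28.4 and 22.9 in the DHT libraries. The groups did not overlap, but the control libraries ranged widely and the interval was 0.14 to 1.81 (adjusted p = 0.14, limma). *Hdac4* and *Hdac7* had log2 fold changes of 0.13 ± 0.050 and 0.12 ± 0.051, with adjusted p values of 0.16 and 0.20 by limma, and only those of *Hdac4* were without overlap. The class I genes *Hdac1*, *Hdac2*, *Hdac3* and *Hdac8*, the main catalytic deacetylases, had log2 fold changes between -0.033 and 0.10, and their intervals all lay within a 1.2-fold change. *Hdac2* had the highest level of the class at 43.1 RPKM, with counts of 7290.2, 7828 and 7591 in the control libraries and 7367, 7311 and 7509 in the DHT libraries. Its groups overlapped, and the log2 fold change was -0.033 ± 0.038. *Hdac10*, which deacetylates polyamines, was lower in every DHT library (log2 fold change -0.17 ± 0.075, adjusted p = 0.19, limma). The remaining *Hdac6* and *Hdac11* had log2 fold changes of 0.019 and 0.092. In level, *Hdac2*, *Hdac1* (29.6 RPKM), *Hdac3* (17.3) and *Hdac5* (10.4) followed each other without overlap, while *Hdac8* and *Hdac10* did not differ beyond the range of the libraries.

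None of the 7 sirtuins, the NAD-dependent deacylases, passed the test, and the groups overlapped in all 7 (smallest adjusted p = 0.47, limma). *Sirt2*, a largely cytoplasmic deacetylase, had the highest level at 10.7 RPKM and counts of 2121, 2078 and 2051 in the control libraries and 2042, 2098 and 2153 in the DHT libraries. The interval of its log2 fold change was -0.081 to 0.10, and its sign turned with upper-quartile scaling, with the GC and length correction and without control replicate 3 or DHT replicate 3. *Sirt5*, a mitochondrial enzyme that removes succinyl groups, had the largest difference, 0.13 ± 0.12, on counts of 317, 258 and 277 in the control libraries and 310.2, 275 and 350.4 in the DHT libraries. The spread within each group was as wide as that difference. *Sirt1* and the mitochondrial *Sirt3* had log2 fold changes of -0.053 ± 0.072 and 0.12 ± 0.091, and *Sirt4*, *Sirt6* and *Sirt7* ranged from -0.018 to 0.062.

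The class of H3K4 methyltransferases, grouped here without a check of the activity of each, held 8 genes. Of these, 6 had negative and 2 positive log2 fold changes, with a median of -0.076 and none past the test (smallest adjusted p = 0.20, limma). *Kmt2c* (MLL3), which with Kmt2d places monomethylation at enhancers, had the largest difference, with counts of 4000.3, 3560.1 and 3884 in the control libraries and 3669.6, 3525 and 3227 in the DHT libraries. Its log2 fold change was -0.14 ± 0.059, and the groups overlapped. *Setd7*, a monomethyltransferase of H3K4 and of other proteins, had the highest level at 20.2 RPKM and counts of 8908, 8213 and 8678 in the control libraries and 8142, 8654 and 8350.3 in the DHT libraries. Its log2 fold change was -0.037 ± 0.042. *Kmt2e* followed at 17.6 RPKM, and *Kmt2b*, *Kmt2d* and *Kmt2a* at 10.1, 8.99 and 8.46 did not differ, neighbour from neighbour, beyond the range of the libraries. The 2 *Setd1* genes and *Kmt2a*, *Kmt2b* and *Kmt2d* had log2 fold changes from -0.12 to 0.044, all with overlapping groups.

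The 6 H3K9 methyltransferases also gave no call (smallest adjusted p = 0.19, limma). *Ehmt2* (G9a), the main writer of H3K9 dimethylation and thus opposite in activity to *Kdm3a*, had the highest level at 36.8 RPKM. Its counts were 8041, 8022 and 8099 in the control libraries and 7593, 7765 and 7607 in the DHT libraries. The groups did not overlap and DHT was the lower, by a small amount (log2 fold change -0.073 ± 0.032, adjusted p = 0.19), and of the 16 alternatives it passed only with a correction for GC content and length (-0.12, adjusted p = 0.041). Its partner *Ehmt1* (GLP) had 3458, 3345 and 3531 in the control libraries and 3361, 3333 and 3095 in the DHT libraries and a log2 fold change of -0.079 ± 0.044. The writers of H3K9 trimethylation, *Suv39h1*, *Suv39h2* and *Setdb1*, had log2 fold changes of 0.039, 0.057 and -0.061, with overlapping groups, as did *Setdb2* at 0.032.

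Among the 8 methyltransferases of H3K36, H4K20 and other SET-domain targets, none passed the test. *Kmt5a*, which monomethylates H4K20, had a level of 48.5 RPKM, the highest of the class, and counts of 9901, 9588 and 10053 in the control libraries and 10194, 10182 and 10082 in the DHT libraries. Every DHT value was above every control value, by a log2 fold change of only 0.044 ± 0.034 (adjusted p = 0.48, limma). *Kmt5c*, which carries H4K20 methylation on to the trimethyl state, had 1435, 1294 and 1267 in the control libraries and 1457, 1406 and 1446 in the DHT libraries and a log2 fold change of 0.11 ± 0.055. Its paralog *Kmt5b* had a negative value of -0.083 ± 0.042. *Setd2*, the writer of H3K36 trimethylation, had a log2 fold change of 0.024 ± 0.048 with an interval of -0.086 to 0.13. *Setd3*, *Setd4*, *Setd5* and *Setd6*, some of which methylate proteins other than histones, had log2 fold changes from -0.051 to 0.070, with overlapping groups in all 4.

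The 8 lysine acetyltransferases all had intervals within a 1.2-fold change, and none passed the test (smallest adjusted p = 0.20, limma). *Kat2b* (PCAF), a coactivator of nuclear receptors, had the highest level at 23.4 RPKM, just above its paralog *Kat2a* (21.8). Its counts were 4344, 4356 and 4352 in the control libraries and 4492, 4529 and 4534 in the DHT libraries. The groups were tight and apart, and the log2 fold change was 0.054 ± 0.032 (adjusted p = 0.34). *Kat5* (Tip60) had the largest difference, 0.11 ± 0.050, on counts of 1056, 1133 and 1123 in the control libraries and 1217, 1157 and 1204 in the DHT libraries, again without overlap. *Kat14* was lower in every DHT library, with a log2 fold change of -0.090 ± 0.044. *Kat2a*, *Kat6a*, *Kat6b*, *Kat7* and *Kat8* had log2 fold changes from -0.090 to 0.045 and overlapping groups.

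The arginine methyltransferases included the gene nearest to the threshold outside it. *Prmt3*, which methylates a protein of the small ribosomal subunit, had 2324, 2208 and 2442 in the control libraries and 2082, 2103 and 2066 in the DHT libraries. Every DHT library was below every control library, the log2 fold change was -0.16 ± 0.046 and the adjusted p was 0.060 by limma. It passed with quantile normalization, with upper-quartile scaling and without control replicate 2, at adjusted p values of 0.049, 0.035 and 0.039. *Prmt1*, the main enzyme of asymmetric dimethylarginine, had the highest level of all 89 genes at 57.1 RPKM, and its counts of 7364, 7491 and 7758 in the control libraries and 7763, 7372 and 7839 in the DHT libraries overlapped between groups. The interval of its log2 fold change was -0.066 to 0.11. *Prmt2*, *Prmt5*, *Prmt6*, *Prmt7* and *Prmt9* had log2 fold changes between -0.051 and 0.013 with overlapping groups.

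Of the enzymes of DNA methylation, none of the 4 Dnmt genes and none of the 3 Tet genes passed the test. *Dnmt1*, which copies methylation at replication, had the highest level at 17.4 RPKM and counts of 4569, 4965 and 5025 in the control libraries and 5286, 5075 and 4946 in the DHT libraries. Its groups overlapped and its log2 fold change was 0.073 ± 0.047. The summed counts of the 20 cell division genes, whose expression *Dnmt1* is known to accompany, ranged from 58181 to 68117 in control and from 60181 to 66629 in DHT. *Dnmt3a*, the de novo methyltransferase, had a log2 fold change of -0.14 ± 0.052 (adjusted p = 0.14), and that of *Dnmt3b* was -0.066 ± 0.11, both with overlapping groups. *Dnmt3l*, a cofactor without enzyme activity that is best known in germ cells, had the largest difference of the class, -0.53 ± 0.27, on low counts of 38.6, 28.8 and 29.6 in the control libraries and 16.6, 20.7 and 30.5 in the DHT libraries. The groups overlapped, and its value in DHT replicate 2, where oocyte markers summed to 44.7, lay between those of the other DHT libraries; the part of oocytes was not tested. *Tet3* had the highest level of the TET genes at 7.96 RPKM, with counts of 5060.0, 4619 and 5607 in the control libraries and 5487, 5201 and 5018 in the DHT libraries and an interval of -0.11 to 0.19, and its sign turned without control replicate 2. *Tet1* had 598, 587 and 638 in the control libraries and 582, 552 and 484 in the DHT libraries, lower in every DHT library, with a log2 fold change of -0.17 ± 0.080 (adjusted p = 0.22, limma). *Tet2* had -0.084 ± 0.056 and overlapping groups.

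The readers of histone methylation gave no call either. All 3 HP1 genes had intervals within a 1.1-fold change. *Cbx1* (HP1 beta) was the highest at 28.9 RPKM, with counts of 4892, 4765 and 4874 in the control libraries and 4795, 4672 and 4822 in the DHT libraries and a log2 fold change of -0.024 ± 0.034. *Cbx3* (HP1 gamma) had 4693, 4656 and 4659 in the control libraries and 4529, 4486 and 4442 in the DHT libraries, lower in every DHT library by a log2 fold change of -0.058 ± 0.033 (adjusted p = 0.31, limma), and it has 8 annotated pseudogenes named after it, whose shared reads the authors' counting of unique reads would leave out. *Cbx5* (HP1 alpha) had a log2 fold change of 0.045 ± 0.040. The Polycomb chromobox genes bind trimethylated H3K27, and none passed the test. *Cbx6* was lower in every DHT library, with a log2 fold change of -0.14 ± 0.052 (adjusted p = 0.12). *Cbx2*, *Cbx7* and *Cbx8* ranged from -0.15 to 0.020 with overlapping groups. Among the 5 PCGF genes, *Pcgf3* had the highest level at 17.5 RPKM and counts of 6338, 6407 and 6538 in the control libraries and 6577, 6699 and 6449 in the DHT libraries. Its groups overlapped, and its log2 fold change was 0.033 ± 0.034, while *Pcgf1*, *Pcgf2* and *Pcgf5* ranged from -0.021 to 0.023. *Pcgf6*, a subunit of a variant PRC1, had 1091, 1102 and 1052 in the control libraries and 974, 995 and 1007 in the DHT libraries, lower in every DHT library, and did not pass (log2 fold change -0.13 ± 0.047, adjusted p = 0.13).

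**Figure D4:**
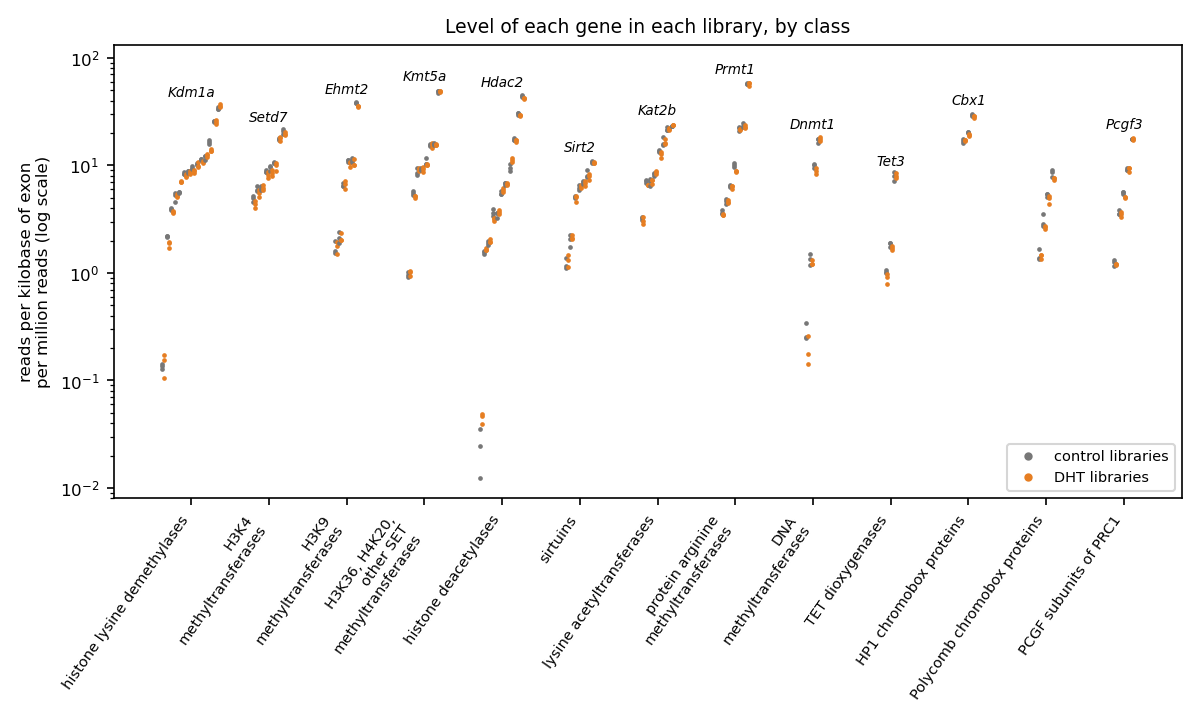
Levels in RPKM (reads scaled to exon length and library total, log scale) are drawn for each gene shown in each control (grey) and DHT (orange) library, in rising order within its class, and the highest gene is named in 12 of 13 classes. Levels run from 0.035 for *Hdac9* to 57.1 for *Prmt1*, and the grey and orange points of a gene lie close together beside the differences between genes.

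By level, the 89 genes had a median of 8.16 RPKM, beside 4.21 over all genes with a length. Lengths are those of all annotated exons of a gene, so genes with long alternative ends are placed lower on this scale. The HP1 genes had the highest class median (19.7) and the TET dioxygenases the lowest (1.77). The long genes among them shared a pattern over libraries. In 15 of the 24 genes with at least 10000 bases of exon (62.5%), including *Kmt2a*, *Kmt2c*, *Kmt2d*, *Kdm2a*, *Kdm2b*, *Kdm5a*, *Dnmt3a* and *Tet1*, DHT replicate 3 was the lowest of the 6 libraries, beside 13 of the 65 shorter chromatin genes (20%), 33.3% of all long genes tested and 16.5% of all shorter ones. The limit of 10000 bases was chosen after the values were seen. The median log2 fold change of the 24 long genes was -0.047, or -0.034 without that library, and that of the 65 shorter ones was 0.013. With the correction for GC content and length these medians were -0.061 and 0.0096. Exons of *Hdac4* and *Kat5* overlap a gene on the other strand over 22.4% and 12.1% of their length, and without strand the reads of both cannot be told apart.

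Related genes with other names were counted in lists. Of 24 other writers and erasers found of 26 listed, *Smyd3*, a lysine methyltransferase, rose and *Prdm2*, an H3K9 methyltransferase, fell, the latter at the edge of the threshold. These are 8.33% of the list, beside 11.2% of all genes tested. *Smyd3* had 545, 548 and 565 in the control libraries and 661, 641 and 687 in the DHT libraries and a log2 fold change of 0.26 ± 0.058 (adjusted p = 0.022, limma). *Prdm2* had 4315, 4409 and 4353 in the control libraries and 4071, 3994 and 3942 in the DHT libraries and -0.12 ± 0.034, at an adjusted p of 0.0497 by limma. Both were without overlap between groups. The other 22, with the acetyltransferases *Crebbp* and *Ep300* and the steroid receptor coactivators *Ncoa1* to *Ncoa3* among them, did not pass.

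Partners that hold these enzymes in their complexes were listed as well. *Rbbp7*, a histone-binding subunit shared by the Hdac1/2 complexes and PRC2, had 14198, 13239.5 and 13541 in the control libraries and 11338, 11596 and 11405 in the DHT libraries. Its log2 fold change was -0.25 ± 0.038, with an adjusted p of 0.0032 by limma, and the groups did not overlap.

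Of 19 enzymes that supply methyl, acetyl, 2-oxoglutarate or NAD cofactors to these reactions, 4 were called higher and 0 lower by limma (21.1%). Over all genes tested, 6.52% were called higher and 4.66% lower. Before adjustment, 7 of the 19 were higher and 1 lower, beside 2186 higher and 1915 lower of all 16292 genes tested. *Acly* and *Acss2*, which make acetyl-CoA from citrate and from acetate, had log2 fold changes of 0.54 ± 0.043 and 1.0 ± 0.099. *Acss2* rose from 1009, 774 and 929 counts in control to 1644, 1798 and 1972 in DHT. *Idh1*, which makes 2-oxoglutarate in the cytosol, and *Nampt*, the rate-limiting enzyme of NAD salvage, had 0.46 ± 0.069 and 0.29 ± 0.043. The adjusted p values of these 4 by limma ran from 0.00014 (*Acly*) to 0.0033 (*Idh1*). *Acly* and *Acss2* also serve lipid synthesis, and *Idh1* makes NADPH for it. The 11 genes of PRC2 and the H3K27 demethylases, listed for comparison, gave 0 calls in limma (1 before adjustment), with a smallest adjusted p of 0.095 and log2 fold changes from -0.081 to 0.12. In the cell division list, *Pcna* rose, with a log2 fold change of 0.22 ± 0.053, *Ccnb2* fell, at -0.41 ± 0.066, and 18 of 20 did not pass, so 10% were called beside 11.2% of all genes tested.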

How the data were processed

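RNA-seq was made from 3 control and 3 DHT libraries of mouse GCs. Per the submitters' processing notes, the authors used Trimmomatic 0.36 for trimming, STAR 2.5.2b for mapping to GRCm38 and featureCounts of Subread 1.5.2, which took uniquely mapped exonic reads. The authors deposited these as a signal, a normalized count in which each library's reads were scaled by its DESeq2 size factor. Their own fold changes and p-values, and a second table of their called genes, were not used. Totals are reads counted on genes, and p-values measure the spread between these libraries, each a pool of the cells of 5 mice.

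The test was limma 3.58.1 (R 4.3.3) on log2(value + 1), fitted with an intensity trend, without a block and with Benjamini-Hochberg adjustment, to the 16292 of 16300 genes whose mean was 10 or more. An exact permutation test of 3 libraries against 3 has a smallest p of 0.1, so none was run. Fold changes are on the log2(value + 1) scale, which understates changes of low genes. The same test was checked on simulated data. Lengths, positions and overlaps came from a GENCODE annotation of GRCm38, which matched 16265 genes, and RPKM was computed from the totals. Promoter windows came from RefSeq (GRCm38.p6). Overlapping exons on the opposite strand occur in 32 of the 89 genes. Control and DHT libraries share replicate numbers in the labels, which name no shared animals.

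The 89 genes, classes and lists were chosen with earlier results of these data known. Values in all 6 libraries are given for called genes, for the gene of each class with the highest RPKM and the one with the largest absolute log2 fold change, and for *Kdm3a*, *Kdm4a*, *Kdm4b* and *Kdm5b*, which the study names. Other genes given with values are those without overlap between groups, close paralogs, or called genes of the related lists. Alternatives were pseudocounts of 0.5 and 8, no filter, a mean of at least 50, quantile normalization, no intensity trend, the replicate block, a loess correction for GC content and length with a span of 0.3, alone or with the block, and each library left out in turn. Upper-quartile scaling was added after the data were seen. Some genes under these rules are not reported here.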

Additional observations from a re-analysis of the deposited data

How the results depend on the processing

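Of 16 alternatives, *Kdm1b* passed the test in 16, *Kdm3a* in 15 and *Hdac5* in 8, and none of the 3 changed direction. Count-based tests and TMM scaling were planned and not run, because the deposited values are normalized and not raw counts and the size of 1 read could not be settled independently in 3 of the 6 libraries. With 2 genes called higher and 1 lower of the 89, the count lower became 2 with quantile normalization and with upper-quartile scaling (chosen after seeing the data), where *Prmt3* was added, and 2 with the GC and length correction, where *Ehmt2* was added. Without the intensity trend 1 was higher (*Kdm1b*) and 0 lower, with 501 and 303 of all genes called, beside 1063 and 760. Leaving out single libraries, the 89 genes gave 1 to 4 higher and 1 to 2 lower, and all genes 586 to 1240 higher and 351 to 863 lower; the lowest counts came without DHT replicate 2 (586 and 382) and without DHT replicate 3 (586 and 351). The 4 higher came without control replicate 3, with *Hdac9* among those added (log2 fold change 1.30, adjusted p = 0.045 by limma), and *Cbx6* was then added to the lower. *Hdac5* was lost without control replicate 1 or 2 and without DHT replicate 1, 2 or 3 (adjusted p from 0.052 to 0.11). The labels share replicate numbers between groups, and the deviations of same-numbered libraries had correlations of 0.0058, 0.067 and -0.24. Those of differently numbered libraries ran from -0.19 to 0.23. With 3 libraries in each group, these values cannot settle whether libraries shared a pool. The study's methods name paired t tests for 2 groups but state no pairs for the RNA-seq, and the main fit took none. With the replicate block, 1 of the 89 was higher (*Kdm1b*), and all genes gave 633 higher and 357 lower. With the GC and length correction and the replicate block together, 1 was higher, and all genes gave 683 higher and 400 lower.

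Genes with differences near 0 changed sign under some settings, none of them called. *Kdm4a* was -0.0018 with upper-quartile scaling, -0.0065 with the GC and length correction with and without the block, and -0.0034 to 0.050 with single libraries left out, negative without DHT replicate 1. *Sirt2* was -0.015 with upper-quartile scaling, -0.021 with the correction with and without the block, and -0.0093 to 0.029 with single libraries left out, negative without control replicate 3 (-0.0017) or DHT replicate 3, while *Prmt1* was -0.0014 with upper-quartile scaling. *Tet3* ran from -0.026, without control replicate 2, to 0.11 over single libraries left out. *Kdm5b* ran from -0.047 to 0.019, positive without control replicate 3 (0.015), DHT replicate 2 or DHT replicate 3 (0.0059). The cause of these changes was not tested. Upper-quartile scaling moved the median of all genes to -0.029. Counts under 50 limit *Hdac9*, *Kdm4d* and *Dnmt3l*.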
